A study of Caenorhabditis elegans with 18 samples.

Results

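The 39 genes described here encode the contractile machinery of Caenorhabditis elegans muscle and the structures that attach it to the cell surface. They were taken as the genes of a set list that a probe set of the array names alone, and a gene with several such probe sets is represented by the one with the highest mean over all 18 arrays. All 39 were measured, out of 17118 genes that a probe set names alone. By role, 11 belong to the thick filament, 13 to the thin filament, 12 to the attachment structures, and 3 to calcium handling and control of the muscle fate. RNA of whole worms was hybridised to Affymetrix arrays to compare lin-35(n745) with N2 at 3 stages. lin-35 encodes the only pocket protein of the worm, the counterpart of the retinoblastoma protein, and the L1 labels call the mutant a null. The 6 groups held 3 arrays each: lin-35(n745) embryos and N2 embryos, lin-35(n745) and N2 first-stage larvae (L1), and lin-35(n745) and N2 fourth-stage larvae (L4). The labels describe the larvae as hermaphrodites from synchronized populations and say nothing on how closely the embryos were staged. Every group was grown on NGM plates with OP50 bacteria at 20 °C, and N2, the laboratory wild type, was the control.

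Body wall muscle moves the worm, and the pharynx has its own muscle that pumps food. In both, myosin thick filaments slide along actin thin filaments, and calcium acting through troponin and tropomyosin on the thin filament switches contraction on. The filaments are anchored at dense bodies and M-lines, where integrins in the muscle membrane bind perlecan in the basement membrane and recruit kindlin, integrin-linked kinase, vinculin and related proteins inside the cell. Many of them carry names from the mutants that revealed them, unc for uncoordinated movement and pat for embryos that arrest paralysed. Values below are log2 levels as deposited, so that a difference of 1 is a 2-fold change, and differences are lin-35(n745) minus N2 ± SE of the fit. A gene was called changed when its adjusted p in limma was under 0.05. Nothing in the labels says that the 3 arrays of a group came from separate cultures, so p-values measure the spread between arrays, which may be technical. The level of one probe set cannot be set against that of another, so levels are compared only between groups of the same gene.

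As a check of the strains, the lin-35 transcript read 7.68 to 8.22 in lin-35(n745) embryos and 9.07 to 9.36 in N2 embryos, 6.24 to 6.95 in lin-35(n745) L1 and 7.82 to 7.86 in N2 L1, and 6.32 to 6.49 in lin-35(n745) L4 and 7.60 to 7.71 in N2 L4. The strains did not overlap at any stage, with differences of -1.38, -1.27 and -1.25 and a largest adjusted p of 4.35e-06. Array medians ran between 6.21 and 6.39. In embryos the hybridization control BioDn read 10.55 and 10.23 on replicate 1 of lin-35(n745) and of N2, and 12.20 to 12.29 on the other 4 embryo arrays. The strain calls in embryos and the called interactions with embryos are therefore also given without those replicates. Medians, array separation, sums, list counts and stage steps that involve embryos are given with all arrays. At L1, lin-35(n745) replicate 3 gave the lowest of its group's 3 values for 23 of the 39 genes, against 26.5% of all probe sets. N2 L1 replicate 1 did so for 24 of the 39 genes, against 37.4% of all probe sets. The median deviation of the 39 genes from their group mean was -0.111 on the first array and -0.0278 on the second. The median SD of the 39 genes was 0.188 in lin-35(n745) L1 and 0.0574 in N2 L1, and over all probe sets it was 0.164 and 0.11 in these groups.

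The strain comparison asks whether muscle transcripts differ when lin-35 is absent. Few did, and all by less than 2-fold. In embryos, the pharyngeal myosin gene myo-2, the pharyngeal troponin C gene tnc-2 and the actin-binding gene unc-87 were higher in lin-35(n745). At L1, the twitchin gene unc-22 was higher, and the troponin T gene tnt-3 and the perlecan gene unc-52 were lower. At L4, unc-22 was again higher and the pharyngeal troponin T gene tnt-4 was lower. These calls involve 7 of the 39 genes (17.9%), whereas 30.6% of all 17118 genes were called at 1 or more stages. unc-22 was the 1 member called at more than 1 stage, and 32 members were called at none.

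By stage, 3 of 39 genes (7.69%) were called in embryos, 3 higher and 0 lower, against 9.70% of all 22548 probe sets (5.92% higher and 3.78% lower). At L1 3 genes (7.69%) were called, 1 higher and 2 lower, against 15.2% of all probe sets (8.24% higher and 6.94% lower). With each array centred on its median, 1 gene was higher and 6 were lower at L1 (17.9% called, against 17.2% of all probe sets), and of all probe sets called 1569 of 3871 were higher, in place of 1859 of 3423. At L4 2 genes (5.13%) were called, 1 in each direction, against 15.2% (7.77% higher and 7.48% lower). The median difference of the 39 genes was 0.06 in embryos, -0.11 at L1 and -0.01 at L4, and that of all probe sets was -0.03, -0.04 and -0.03. The median size of the difference regardless of sign was 0.118, 0.143 and 0.108 for the muscle genes and 0.129, 0.15 and 0.135 for all probe sets. The 95% interval of the difference stayed within 2-fold for all 39 genes at each stage, and within 1.5-fold for 31 in embryos, 33 at L1 and 35 at L4. In whole-worm RNA, a change in the number of muscle cells and a change in RNA per muscle cell cannot be told apart.

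A coarser view, whether the 3 lin-35(n745) arrays all lay on one side of the 3 N2 arrays, gave 7 genes in embryos (5 above and 2 below), where 25.8% of all probe sets were so separated (11.5% above and 14.3% below). At L1 it gave 12 genes (2 above and 10 below), against 26.5% of all probe sets (12.5% above and 14.1% below). At L4 it gave 12 genes (5 above and 7 below), against 35.9% (16.1% above and 19.8% below). The shares of the muscle genes were 17.9%, 30.8% and 30.8%. At L1 the separated genes lay mostly below N2, and 9 of 39 had an unadjusted p under 0.05, 8 lower and 1 higher, against 27.6% of all probe sets in either direction. Without lin-35(n745) L1 replicate 3, the median L1 difference of the 39 genes was -0.06, and that of all probe sets was -0.05.

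**Figure D1:**
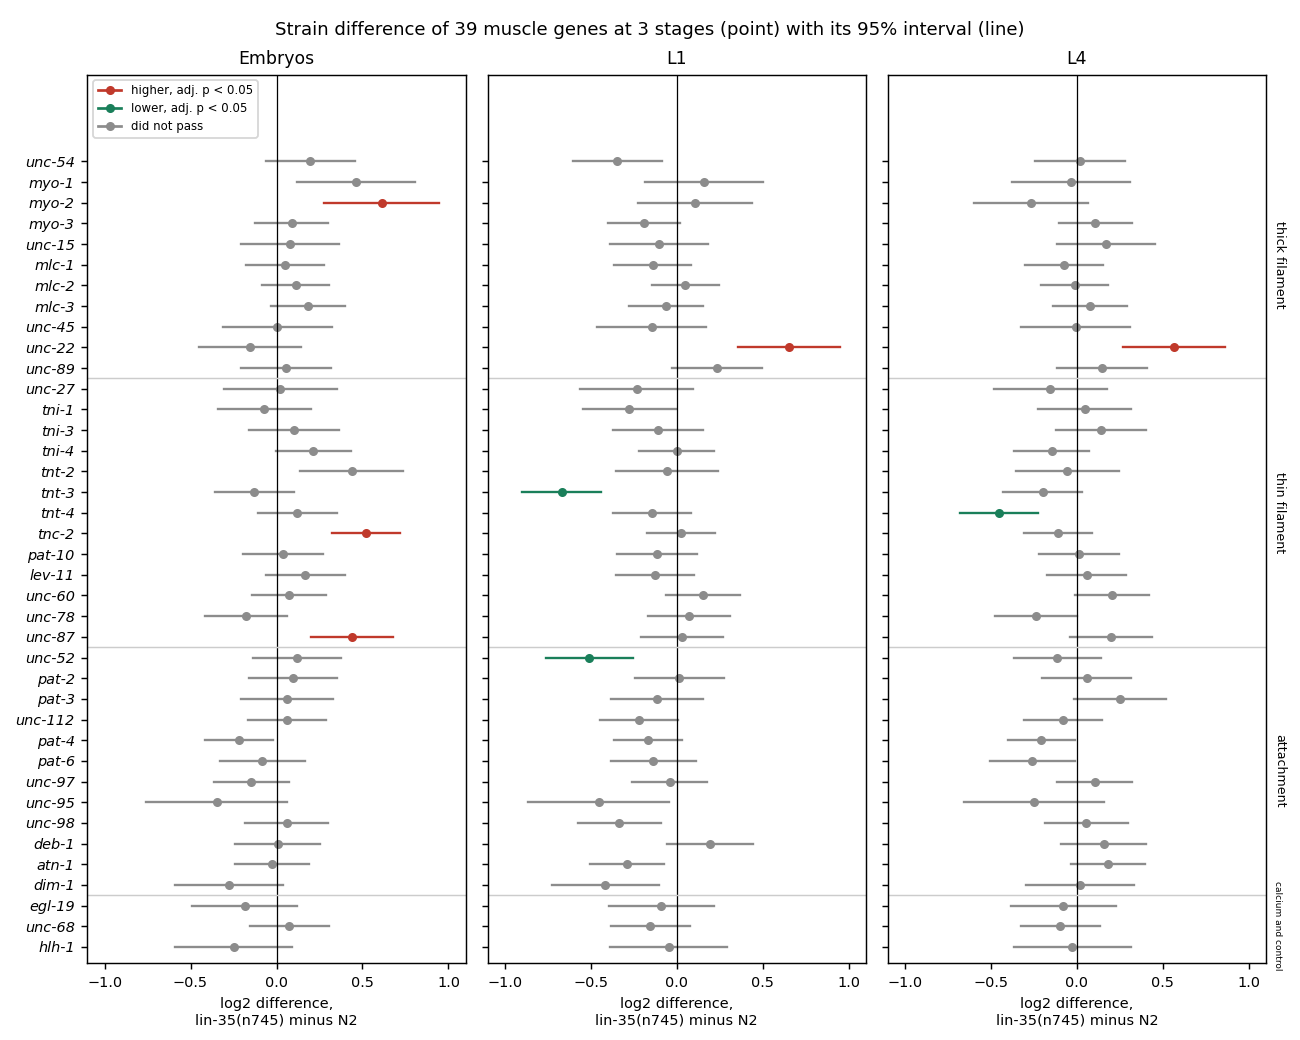
Difference between lin-35(n745) and N2 (horizontal axis, log2) for the 39 genes, grouped by role, in embryos, L1 and L4; points are fitted differences and lines their 95% intervals. Coloured genes passed an adjusted p under 0.05: 3 in embryos, 3 at L1 and 2 at L4, and the intervals of the remaining genes stay within 2-fold.

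The thick filament genes showed a strain difference in 2 members, myo-2 and unc-22, out of 11. The main body wall myosins and paramyosin did not pass at any stage. unc-54 encodes the major myosin heavy chain of body wall muscle. In embryos unc-54 read 10.89, 10.52 and 10.74 in lin-35(n745) and 10.42, 10.68 and 10.45 in N2. At L1 it read 11.67, 11.61 and 11.24 in lin-35(n745) and 11.75, 11.94 and 11.86 in N2. At L4 it read 11.64, 11.88 and 11.58 in lin-35(n745) and 11.62, 11.76 and 11.66 in N2. The strains overlapped in embryos and at L4, while all lin-35(n745) L1 arrays lay below all N2 L1 arrays. Differences of 0.20 ± 0.12, -0.35 ± 0.12 and 0.02 ± 0.12 had adjusted p = 0.396, 0.0693 and 0.955. The L1 difference passed with each array centred on its median (-0.40, adjusted p = 0.0362), without dim probe sets (adjusted p = 0.0488), with an intensity trend (adjusted p = 0.0345) and without lin-35(n745) L1 replicate 1 (adjusted p = 0.0389). Without lin-35(n745) L1 replicate 3 it was -0.21 (adjusted p = 0.318).

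myo-3 encodes the myosin found at the centre of the same filaments. For myo-3, embryos read 9.77, 9.72 and 9.74 in lin-35(n745) and 9.53, 9.75 and 9.69 in N2. Its L1 values were 9.53, 9.52 and 9.35 in lin-35(n745) and 9.54, 9.73 and 9.70 in N2, and its L4 values 9.04, 9.32 and 8.98 in lin-35(n745) and 8.98, 9.05 and 8.99 in N2. Only at L1 were the strains apart, with lin-35(n745) lower, and the difference of -0.19 ± 0.10 did not pass (adjusted p = 0.237). unc-15 encodes paramyosin, the rod that forms the filament core. Paramyosin read 11.93, 11.71 and 12.19 in lin-35(n745) embryos and 11.78, 12.04 and 11.77 in N2 embryos. It read 12.14, 12.50 and 12.34 in lin-35(n745) L1 and 12.51, 12.38 and 12.40 in N2 L1. At L4 it averaged 12.34 ± 0.25 in lin-35(n745) and 12.17 ± 0.05 in N2 (SD, n = 3 each). The strains overlapped at all 3 stages, and differences ran from -0.10 to 0.17 (adjusted p of 0.503 or more).

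myo-2 and myo-1 encode the myosin heavy chains of pharyngeal muscle. myo-2 read 8.96, 8.20 and 8.67 in lin-35(n745) embryos, against 8.0, 8.18 and 7.82 in N2 embryos. It read 9.77, 9.60 and 10.17 in lin-35(n745) L1 and 9.71, 9.74 and 9.77 in N2 L1. At L4, myo-2 read 8.89, 9.0 and 8.70 in lin-35(n745) and 9.09, 9.21 and 9.10 in N2. Embryo arrays of lin-35(n745) all lay above those of N2, narrowly so for replicate 2, the L1 arrays overlapped, and the L4 arrays of lin-35(n745) all lay below those of N2. In embryos the rise was 0.61 ± 0.16 (1.53-fold, adjusted p = 0.017). The L4 difference was -0.27 ± 0.16 (adjusted p = 0.323), and the change of the strain difference between L4 and embryos was -0.88 ± 0.23 (adjusted p = 0.0172). The embryo rise did not pass without lin-35(n745) replicate 1 (0.44), lin-35(n745) replicate 3 (0.58) or N2 replicate 3 (0.52), nor without replicate 1 of both strains (0.44, adjusted p = 0.19).

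The second pharyngeal myosin, myo-1, read 10.02, 9.51 and 9.99 in lin-35(n745) embryos and 9.44, 9.64 and 9.04 in N2 embryos. Its larval values were 11.29, 11.18 and 11.76 in lin-35(n745) L1 and 11.33, 11.26 and 11.16 in N2 L1. At L4 they were 10.50, 10.84 and 10.65 in lin-35(n745) and 10.68, 10.79 and 10.62 in N2. The strains overlapped at each stage, in embryos through lin-35(n745) replicate 2 and N2 replicate 2. The embryo difference of 0.46 ± 0.16 did not pass (adjusted p = 0.0863). It passed without replicate 2 of lin-35(n745) embryos (0.63, adjusted p = 0.0285) or of N2 embryos (0.60, adjusted p = 0.0416). It also passed with probe sets averaged (0.56, adjusted p = 0.0186), and without lin-35(n745) L1 replicate 3, which leaves the difference unchanged. A second myo-1 probe set, of lower mean level, did pass in embryos at 0.65 ± 0.15 (adjusted p = 0.00642).

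unc-22 encodes twitchin, a giant kinase of the thick filament, whose loss makes muscle twitch. In embryos unc-22 read 7.36, 7.55 and 7.95 in lin-35(n745) and 7.61, 8.06 and 7.66 in N2. At L1 the values were 9.58, 9.58 and 9.72 in lin-35(n745), against 9.06, 8.96 and 8.90 in N2. At L4 they were 9.01, 9.22 and 9.23 in lin-35(n745), against 8.63, 8.75 and 8.39 in N2. Every larval lin-35(n745) array lay above every N2 array of its stage, and the embryo arrays overlapped. unc-22 rose by 0.65 ± 0.14 at L1 (1.57-fold, adjusted p = 0.00294) and by 0.57 ± 0.14 at L4 (1.48-fold, adjusted p = 0.00841). The embryo difference was -0.16 ± 0.14 (adjusted p = 0.592), and the strain difference was larger than in embryos by 0.81 ± 0.20 at L1 (adjusted p = 0.0133) and by 0.72 ± 0.20 at L4 (adjusted p = 0.0292). A second unc-22 probe set, of lower mean level, was called at no stage, with differences of -0.06, 0.08 and -0.01 in embryos, L1 and L4. Its embryo values, 5.22 to 5.84, lay under the array medians. With both averaged, the differences were 0.37 at L1 (adjusted p = 0.104) and 0.28 at L4 (adjusted p = 0.248). The L4 rise did not pass without N2 L4 replicate 3 (0.46, adjusted p = 0.0626).

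unc-89, the obscurin-like giant protein of the M-line, read 8.81, 8.51 and 9.10 in lin-35(n745) embryos and 8.76, 8.79 and 8.71 in N2 embryos. At L1 unc-89 read 10.38, 10.41 and 10.67 in lin-35(n745) and 10.21, 10.25 and 10.29 in N2, and at L4 9.70, 10.03 and 9.90 in lin-35(n745) and 9.67, 9.82 and 9.70 in N2. The L1 arrays did not overlap, with lin-35(n745) higher, but the difference of 0.24 ± 0.13 did not pass (adjusted p = 0.237). The other 4 thick filament genes are the myosin regulatory light chains mlc-1 and mlc-2, the essential light chain mlc-3 and the myosin chaperone unc-45. Their differences ran from 0.01 to 0.18 in embryos, -0.15 to 0.05 at L1 and -0.08 to 0.08 at L4, and the lowest adjusted p was 0.33. Since the regulatory light chains mlc-1 and mlc-2 are close copies, and a further probe set names both, signal may be shared between them and their values are uncertain.

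**Figure D2:**
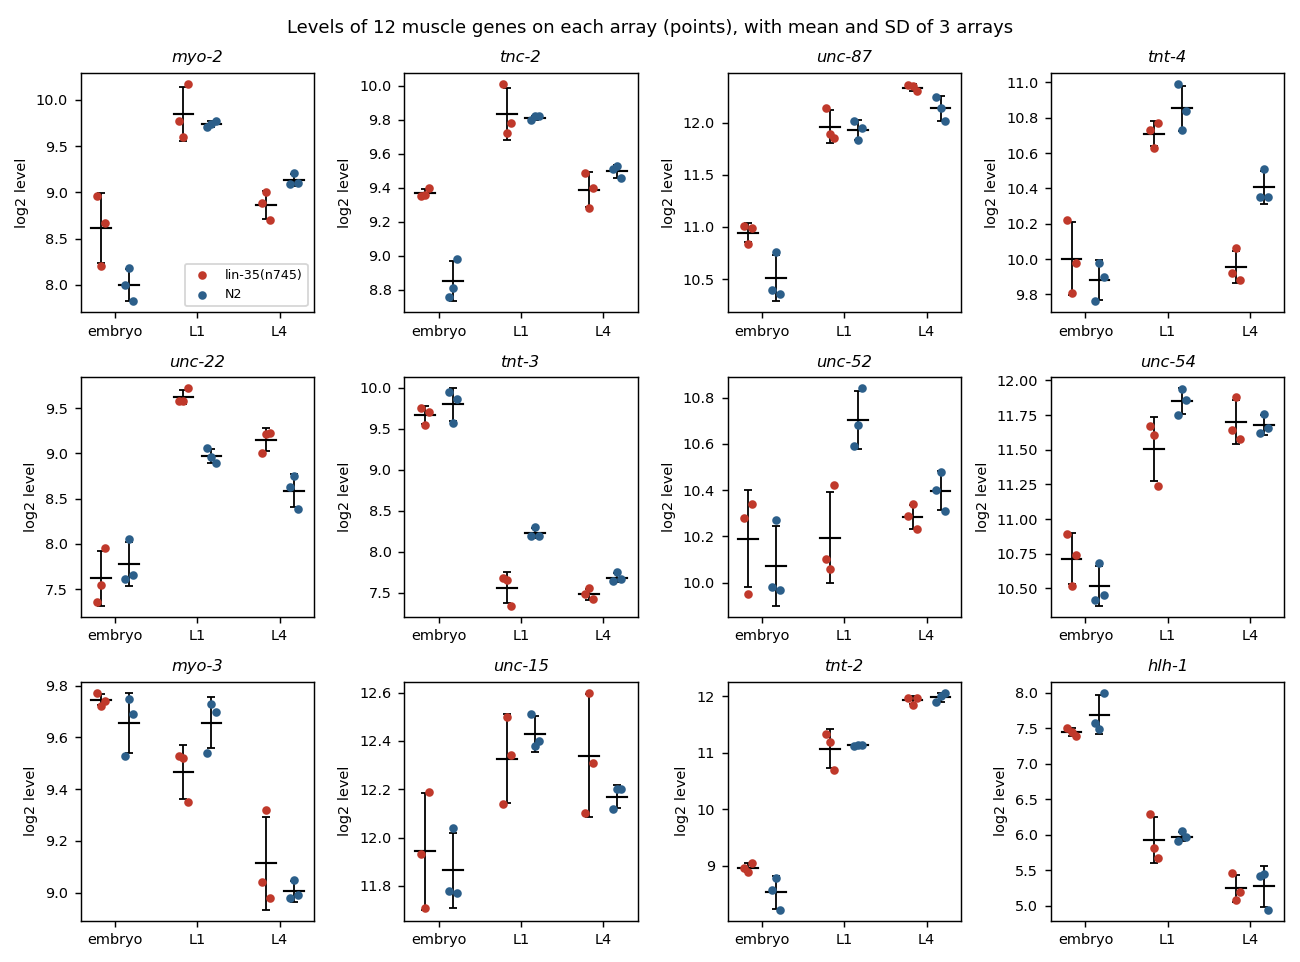
Log2 level (vertical axis) of 12 muscle genes on every array, by stage, with lin-35(n745) in red to the left of N2 in blue; horizontal bars are means and vertical bars SD of 3 arrays. The strain difference was called for myo-2, tnc-2 and unc-87 in embryos, unc-22, tnt-3 and unc-52 at L1 and unc-22 and tnt-4 at L4. Some differences that were not called also have arrays that do not overlap, such as tnt-2 in embryos and unc-54 at L1. tnt-2 shows a wide distance between stages.

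Among the 13 thin filament genes, tnc-2 and unc-87 were higher in lin-35(n745) embryos, tnt-3 was lower at L1 and tnt-4 was lower at L4. tnc-2 encodes the troponin C of the pharynx, the calcium sensor of the thin filament. In embryos tnc-2 read 9.35, 9.36 and 9.40 in lin-35(n745), against 8.76, 8.81 and 8.98 in N2. At L1 tnc-2 read 10.01, 9.72 and 9.78 in lin-35(n745) and 9.80, 9.82 and 9.82 in N2, and at L4 9.49, 9.28 and 9.40 in lin-35(n745) and 9.51, 9.53 and 9.46 in N2. The embryo groups were well separated and the larval groups overlapped. The embryo rise was 0.52 ± 0.09 (1.43-fold, adjusted p = 0.000957), and it passed under all 28 alternative settings (0.47 to 0.59). These include leaving out each array in turn, where a larval array changes only the SE and adjusted p. In larvae the difference was 0.02 at L1 and -0.11 at L4. Its change relative to embryos was -0.50 ± 0.13 at L1 (adjusted p = 0.0227) and -0.63 ± 0.13 at L4 (adjusted p = 0.00463).

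tnt-4 encodes the troponin T of the pharynx, which ties the troponin complex to tropomyosin. Embryos read 10.22, 9.81 and 9.98 in lin-35(n745) and 9.76, 9.98 and 9.90 in N2 for tnt-4. At L1 tnt-4 read 10.73, 10.63 and 10.77 in lin-35(n745) and 10.99, 10.73 and 10.84 in N2. At L4 tnt-4 read 9.92, 10.06 and 9.88 in lin-35(n745), against 10.35, 10.51 and 10.35 in N2. Only the L4 arrays were apart, with all lin-35(n745) arrays below all N2 arrays. The L4 fall was -0.45 ± 0.11 (1.37-fold lower, adjusted p = 0.00634), and it passed under all 26 alternatives run for it (-0.50 to -0.39). Those that leave out embryo or L1 arrays change only its SE and adjusted p. Relative to embryos, where the difference was 0.12, the strain difference moved by -0.57 ± 0.15 (adjusted p = 0.024).

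tnt-3 encodes another troponin T. In embryos tnt-3 read 9.75, 9.55 and 9.70 in lin-35(n745) and 9.95, 9.57 and 9.86 in N2. At L1 tnt-3 read 7.68, 7.65 and 7.34 in lin-35(n745), against 8.19, 8.30 and 8.19 in N2. At L4 tnt-3 read 7.48, 7.55 and 7.42 in lin-35(n745) and 7.64, 7.75 and 7.66 in N2. All larval lin-35(n745) arrays lay below the N2 arrays of their stage, by a wider margin at L1. At L1 tnt-3 fell by 0.67 on the log2 scale (SE 0.11, 1.59-fold lower, adjusted p = 0.000195). The call held under all 26 alternatives (-0.73 to -0.56), again including those that leave out arrays of other stages. The L4 difference of -0.20 ± 0.11 did not pass (adjusted p = 0.282). The change of the strain difference between L1 and embryos was -0.54 ± 0.16 (adjusted p = 0.0334), a call kept under 19 of 28 alternatives. Among the thin filament genes listed here, the remaining troponin T gene is tnt-2. In embryos tnt-2 read 8.96, 8.89 and 9.05 in lin-35(n745) and 8.58, 8.79 and 8.22 in N2. At L1 tnt-2 read 11.34, 11.19 and 10.69 in lin-35(n745) and 11.12, 11.14 and 11.13 in N2, and at L4 11.97, 11.85 and 11.97 in lin-35(n745) and 11.90, 12.01 and 12.05 in N2. The embryo groups did not overlap, but the difference of 0.44 ± 0.14 did not pass (adjusted p = 0.0606). It passed without dim probe sets (adjusted p = 0.0482), with an intensity trend (adjusted p = 0.0356) and without N2 embryo replicate 2 (0.57, adjusted p = 0.0228). It also passed without lin-35(n745) L1 replicate 1 or 3, which changes only its SE and adjusted p.

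unc-87 encodes a calponin-related protein that bundles actin filaments. In embryos unc-87 read 11.01, 10.84 and 10.99 in lin-35(n745), against 10.40, 10.76 and 10.36 in N2. At L1 unc-87 read 12.14, 11.89 and 11.85 in lin-35(n745) and 12.02, 11.83 and 11.95 in N2, and at L4 12.36, 12.35 and 12.30 in lin-35(n745) and 12.25, 12.14 and 12.02 in N2. The lin-35(n745) arrays were all above the N2 arrays in embryos and at L4, and overlapped them at L1. The embryo rise was 0.44 ± 0.11 (1.36-fold, adjusted p = 0.0159), and all 3 unc-87 probe sets gave it (0.44, 0.42 and 0.43, each called). It did not pass without lin-35(n745) embryo replicate 1 (0.41) or 3 (0.42) or N2 embryo replicate 1 (0.39) or 3 (0.37), nor without replicate 1 of both strains (0.35, adjusted p = 0.174). At L4 the difference was 0.20 ± 0.11 (adjusted p = 0.298).

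unc-27, a troponin I of body wall muscle, read 9.60, 9.34 and 9.43 in lin-35(n745) embryos and 9.50, 9.64 and 9.16 in N2 embryos. At L1 unc-27 read 10.76, 10.43 and 9.90 in lin-35(n745) and 10.53, 10.61 and 10.64 in N2, and at L4 11.51, 11.36 and 11.34 in lin-35(n745) and 11.55, 11.62 and 11.50 in N2. The groups overlapped at all 3 stages, and lin-35(n745) L1 replicate 3 was the lowest L1 array. The other 7 thin filament genes are the troponin I genes tni-1, tni-3 and, in the pharynx, tni-4, the body wall troponin C gene pat-10, the tropomyosin gene lev-11, the cofilin gene unc-60 and the actin-disassembly gene unc-78. Their differences ran from -0.18 to 0.21 in embryos, -0.27 to 0.15 at L1 and -0.24 to 0.20 at L4, with a lowest adjusted p of 0.175. At L1 tni-1 passed without lin-35(n745) L1 replicate 1 (-0.43, adjusted p = 0.0228), and was -0.07 without replicate 3 (adjusted p = 0.739).

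Among the 12 attachment genes, the perlecan gene unc-52 was lower at L1, and none was called in embryos or at L4. Perlecan is the basement membrane protein to which the muscle integrins bind. In embryos unc-52 read 10.28, 9.95 and 10.34 in lin-35(n745) and 9.98, 10.27 and 9.97 in N2. At L1 unc-52 read 10.10, 10.06 and 10.42 in lin-35(n745), against 10.59, 10.68 and 10.84 in N2. At L4 unc-52 read 10.29, 10.34 and 10.23 in lin-35(n745) and 10.40, 10.48 and 10.31 in N2. The strains were apart at L1, with lin-35(n745) lower, and overlapped in embryos and at L4. At L1 unc-52 fell by 0.51 on the log2 scale (SE 0.12, 1.42-fold lower, adjusted p = 0.00656), and the change of the strain difference relative to embryos was -0.63 ± 0.17 (adjusted p = 0.0259). The other 2 unc-52 probe sets differed by -0.12 and -0.01 at L1 and did not pass there, and 1 of them was lower at L4 (-0.38 ± 0.12, adjusted p = 0.0307). With all probe sets of the gene averaged, the L1 difference was -0.21 (adjusted p = 0.185), and it did not pass in a fit of the L1 arrays alone (adjusted p = 0.0517).

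pat-3 encodes the beta integrin of the muscle attachments. pat-3 read 10.99, 11.23 and 11.54 in lin-35(n745) embryos and 11.23, 11.08 and 11.25 in N2 embryos. At L1 pat-3 read 10.85, 11.01 and 10.76 in lin-35(n745) and 11, 10.99 and 10.97 in N2, and at L4 10.27, 10.70 and 10.58 in lin-35(n745) and 10.15, 10.34 and 10.31 in N2. The strains overlapped at each stage, and the widest difference was 0.25 ± 0.13 at L4 (adjusted p = 0.227). unc-95, a LIM domain protein of the dense body, read 9.82, 9.65 and 9.60 in lin-35(n745) embryos and 9.98, 10.08 and 10.06 in N2 embryos. At L1 unc-95 read 8.88, 8.51 and 7.63 in lin-35(n745) and 8.60, 8.85 and 8.92 in N2, and at L4 8.70, 8.51 and 8.75 in lin-35(n745) and 8.99, 8.82 and 8.90 in N2. lin-35(n745) lay wholly below N2 in embryos and at L4, and at L1 its replicate 3 stood well below its other arrays. Differences of -0.35 ± 0.20, -0.45 ± 0.20 and -0.25 ± 0.20 did not pass (adjusted p = 0.323, 0.132 and 0.495), and the L1 difference was -0.10 without lin-35(n745) L1 replicate 3 (adjusted p = 0.686) and -0.72 without its replicate 1 (adjusted p = 0.0071).

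dim-1, an immunoglobulin-repeat protein near the dense body, read 11.55, 11.79 and 11.94 in lin-35(n745) embryos and 11.90, 11.99 and 12.22 in N2 embryos. At L1 dim-1 read 11.69, 11.64 and 10.96 in lin-35(n745) and 11.90, 11.86 and 11.77 in N2, and at L4 12.17, 11.93 and 12.06 in lin-35(n745) and 11.98, 12.06 and 12.07 in N2. The L1 arrays were apart with lin-35(n745) lower, again with replicate 3 lowest, and the difference of -0.41 ± 0.15 did not pass (adjusted p = 0.0698). Without that replicate it was -0.18 (adjusted p = 0.394). The difference passed with each array centred on its median (-0.47, adjusted p = 0.0381). It also passed without lin-35(n745) L1 replicate 1 (-0.54, adjusted p = 0.0238) or 2 (-0.52, adjusted p = 0.0291). The other 8 attachment genes are the alpha integrin pat-2, the kindlin unc-112, the integrin-linked kinase pat-4, the parvin pat-6, the PINCH protein unc-97, the zinc finger protein unc-98, the vinculin deb-1 and the alpha-actinin atn-1. Their differences ran from -0.22 to 0.10 in embryos, -0.33 to 0.19 at L1 and -0.26 to 0.18 at L4, with a lowest adjusted p of 0.0583 for unc-98 at L1. Both unc-98 and atn-1 were lower at L1, and called, after centring, without dim probe sets and without lin-35(n745) L1 replicate 2. unc-98 was also called after quantile normalization and without lin-35(n745) L1 replicate 1. Without lin-35(n745) L1 replicate 3 each was -0.18 and did not pass (adjusted p = 0.322 for unc-98 and 0.309 for atn-1). At L1 10 of the 12 attachment differences were negative, with a median of -0.19, and without lin-35(n745) L1 replicate 3 8 were negative and 4 positive, with a median of -0.09.

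None of the 3 genes of calcium handling and control was called. hlh-1 encodes the worm MyoD factor that drives body wall muscle fate. hlh-1 read 7.50, 7.44 and 7.39 in lin-35(n745) embryos and 7.57, 7.49 and 8.0 in N2 embryos. At L1 hlh-1 read 6.29, 5.81 and 5.67 in lin-35(n745) and 5.91, 6.05 and 5.96 in N2, and at L4 5.46, 5.08 and 5.19 in lin-35(n745) and 5.42, 5.45 and 4.94 in N2. The strains overlapped throughout, with differences of -0.25 ± 0.16, -0.05 ± 0.16 and -0.03 ± 0.16. Larval values, 6.29 or less, lay around or under the array medians. No detection calls were used, so whether larval hlh-1 stood above background was not tested. egl-19 encodes the voltage-gated calcium channel of muscle. egl-19 read 9.02, 8.90 and 9.33 in lin-35(n745) embryos and 9.15, 9.35 and 9.29 in N2 embryos. At L1 egl-19 read 9.17, 9.47 and 9.28 in lin-35(n745) and 9.05, 9.56 and 9.58 in N2, and at L4 7.80, 8.21 and 8.03 in lin-35(n745) and 8.05, 8.24 and 7.98 in N2. Strains overlapped at each stage and differences ran from -0.18 to -0.08. unc-68 encodes the ryanodine receptor, which releases stored calcium. unc-68 read 9.87, 9.65 and 10.01 in lin-35(n745) embryos and 9.51, 9.92 and 9.87 in N2 embryos. At L1 unc-68 read 9.72, 9.76 and 9.62 in lin-35(n745) and 9.83, 9.87 and 9.85 in N2, and at L4 8.77, 8.84 and 8.77 in lin-35(n745) and 8.91, 8.96 and 8.80 in N2. Only its L1 arrays were apart, with lin-35(n745) lower, and the difference of -0.15 ± 0.11 did not pass (adjusted p = 0.397).

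Whether the strain difference depends on the stage was tested directly, with the differences of the differences. Between L1 and embryos 4 of 39 genes (10.3%) passed, 1 higher (unc-22) and 3 lower (tnt-3, tnc-2 and unc-52), against 9.20% of all probe sets (4.83% higher and 4.36% lower). Between L4 and embryos 4 genes (10.3%) passed, 1 higher (unc-22) and 3 lower (myo-2, tnt-4 and tnc-2), against 7.74% (3.85% higher and 3.90% lower). Between L4 and L1 0 genes passed in limma, against 6.72% of all probe sets (3.39% higher and 3.33% lower). At an unadjusted p under 0.05, 4 genes were higher between L4 and L1 and 0 lower, against 18.2% of all probe sets in either direction. The lowest adjusted p there was 0.0597, for the alpha-actinin gene atn-1 (0.47 ± 0.15). With replicate 1 of both strains in embryos as a batch term, the same 4 and 4 genes passed. That term is balanced between the strains, so it changes only the SE and adjusted p, not the differences. It therefore cannot show whether the differences depend on those replicates. Without those replicates, 1 gene passed between L1 and embryos (unc-22) and 1 between L4 and embryos (tnc-2), and the values of the other 6 tests were -0.58 for tnt-3, -0.46 for tnc-2 and -0.54 for unc-52 at L1, and -0.71 for myo-2, 0.67 for unc-22 and -0.41 for tnt-4 at L4.

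The 5 pharyngeal genes, myo-1, myo-2, tni-4, tnt-4 and tnc-2, had strain differences of one sign in embryos and of the other sign at L4. In embryos all 5 were positive, with a median difference of 0.46 and 2 called, against 9.70% of all probe sets. At L1 the median was 0.02, and at L4 all 5 were negative, with a median of -0.15 and 1 called, against 15.2% of all probe sets. The other 34 genes had medians of 0.05, -0.12 and 0.02 at these stages. All 5 pharyngeal genes had a lower strain difference at L4 than in embryos, 3 of them called, against 1 of the other 34 in either direction and 7.74% of all probe sets. Without replicate 1 of both strains in embryos, tnc-2 alone of the pharyngeal genes kept its embryo call and its call between L4 and embryos. The summed linear level of the 5 genes was 3887 to 4620 in lin-35(n745) embryos and 3316 to 3687 in N2 embryos, 6615 to 8424 in lin-35(n745) L1 and 7136 to 7569 in N2 L1, and 4436 to 4878 in lin-35(n745) L4 and 5025 to 5492 in N2 L4. The sums were apart in embryos and at L4, in opposite directions. Because the 5 genes were grouped with earlier results of these data known, these counts are a description.

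Far more of the 39 genes were called between stages than between strains. In lin-35(n745), L1 was higher than embryos for 13 genes and lower for 13 (66.7% called), against 70.3% of all probe sets (37.4% higher and 32.9% lower). In N2, L1 was higher for 17 and lower for 11, which is 71.8% called (43.6% higher and 28.2% lower), against 74.4% of all probe sets (40.8% higher and 33.6% lower). With each array centred on its median, lin-35(n745) gave 16 higher and 10 lower and N2 20 higher and 9 lower. Centring moved the median of all probe sets in N2 to 0.25, which is 0.13 as deposited. The counts after centring therefore cannot be set against the shares of all probe sets given above. Between L4 and L1, 7 genes were higher and 19 lower in lin-35(n745) (66.7% called), against 43.2% of all probe sets (19.5% higher and 23.7% lower). In N2 4 were higher and 21 lower (64.1% called, 10.3% higher and 53.8% lower), against 45.2% (21.2% higher and 24.0% lower). The share called lower at L4 than at L1 was thus larger among the muscle genes than among all probe sets in both strains. The 19 and 21 genes were 19 and 23 after quantile normalization and 19 and 21 after centring. This larger share was not particular to the 39 genes. In lin-35(n745) and N2, 23 and 28 of the 46 other muscle genes listed below were lower. So were 10 and 11 of 12 neuron genes and 8 and 6 of 9 hypodermis genes. Of 12 intestine genes 0 and 2 were lower, of 12 germline genes 0 and 0, and of 11 embryo patterning genes 3 and 3.

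By role, L1 was higher than embryos for 6 of 11 thick filament genes and lower for 2 in lin-35(n745), with a median of 0.38, and higher for 8 and lower for 1 in N2, with a median of 0.56. Of the 13 thin filament genes, 6 were higher and 3 lower in lin-35(n745) (median 0.24), and 7 were higher and 3 lower in N2 (median 0.46). Of the 12 attachment genes, 1 was higher and 7 lower in lin-35(n745) (median -0.44), and 2 were higher and 6 lower in N2 (median -0.32). Of all probe sets, 37.4% were higher and 32.9% lower in lin-35(n745), and 40.8% higher and 33.6% lower in N2. The signs of the role medians were the same after quantile normalization and after centring.

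The widest rises between L1 and embryos were those of tnt-2 (2.11 ± 0.14 in lin-35(n745) and 2.60 ± 0.14 in N2), unc-22 (2.0 ± 0.14 in lin-35(n745) and 1.19 ± 0.14 in N2), myo-1 (1.57 ± 0.16 in lin-35(n745) and 1.88 ± 0.16 in N2), unc-89 (1.67 ± 0.13 in lin-35(n745) and 1.49 ± 0.13 in N2), myo-2 (1.24 ± 0.16 in lin-35(n745) and 1.74 ± 0.16 in N2) and unc-87 (1.01 ± 0.11 in lin-35(n745) and 1.42 ± 0.11 in N2). unc-54 rose by 0.79 ± 0.12 in lin-35(n745) and 1.33 ± 0.12 in N2. Lowest among genes above the array medians at L1 were the troponin T gene tnt-3 (-2.11 ± 0.11 in lin-35(n745) and -1.57 ± 0.11 in N2) and the integrin-linked kinase gene pat-4 (-1.51 ± 0.09 in lin-35(n745) and -1.56 ± 0.09 in N2), followed by its partner pat-6 (-1.44 ± 0.12 in lin-35(n745) and -1.38 ± 0.12 in N2). Every value in these sentences passed the test. The MyoD gene hlh-1 was also called lower at L1 than in embryos in both strains, with L1 values around or under the array medians, so the size of its fall is not given. myo-3 was lower in lin-35(n745) L1 than in embryos (-0.28 ± 0.10, adjusted p = 0.0191) and did not pass in N2 (0.00 ± 0.10, adjusted p = 0.995), where it was higher by 0.29 after quantile normalization.

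At L4 relative to L1, 19.5% of all probe sets were higher and 23.7% lower in lin-35(n745), and 21.2% higher and 24.0% lower in N2. Of the 11 thick filament genes, 6 were lower and 0 higher in each strain. Of the attachment genes, 2 were higher and 5 lower in lin-35(n745), and 0 higher and 7 lower in N2. Of the thin filament genes, 5 were higher and 5 lower in lin-35(n745), and 4 higher and 5 lower in N2. The calcium genes egl-19 and unc-68 were lower in both strains. hlh-1 was also called lower, between values around or under the array medians at both stages, and it is among the 19 and 21 genes counted as lower above. The troponin I gene unc-27 (1.04 ± 0.16 in lin-35(n745) and 0.96 ± 0.16 in N2) and the troponin T gene tnt-2 (0.86 ± 0.14 in lin-35(n745) and 0.86 ± 0.14 in N2) rose most. The calcium channel gene egl-19 (-1.30 ± 0.15 in lin-35(n745) and -1.31 ± 0.15 in N2) fell most in both strains, and the ryanodine receptor gene unc-68 fell by 0.90 in lin-35(n745) and by 0.96 in N2. All 5 pharyngeal genes were lower at L4 than at L1 in both strains. unc-54 did not pass in lin-35(n745) (0.19 ± 0.12, adjusted p = 0.236) or N2 (-0.17 ± 0.12, adjusted p = 0.291), while myo-3 fell in both (-0.35 ± 0.10 in lin-35(n745), adjusted p = 0.00741, and -0.65 ± 0.10 in N2, adjusted p = 2.09e-05).

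Over both steps in N2, 3 genes were higher at each (tni-3, tnt-2 and unc-27), 7 were higher and then lower (myo-1, myo-2, tnc-2, tnt-4, unc-22, unc-52 and unc-89) and 7 were higher and then not called (atn-1, lev-11, mlc-1, mlc-3, unc-15, unc-54 and unc-87). A further 7 were called lower at each step (hlh-1, whose larval values lay around or under the array medians, and pat-2, tni-1, tnt-3, unc-112, unc-45 and unc-97) and 4 were lower and then not called (pat-4, pat-6, unc-78 and unc-95). Both steps share the N2 L1 arrays, so these classes are a description. The remaining 11 were not called at the first step, and of these 1 was higher and 7 lower at the second. Of the 7 genes that were higher and then lower, 4 are pharyngeal: myo-1, myo-2, tnc-2 and tnt-4. The call was the same in both strains for 31 of 39 genes between L1 and embryos and for 32 between L4 and L1, and 0 genes were called in opposite directions. The 2 strains' steps were measured on separate arrays, and the tests of the difference between them are the interactions given above.

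**Figure D3:**
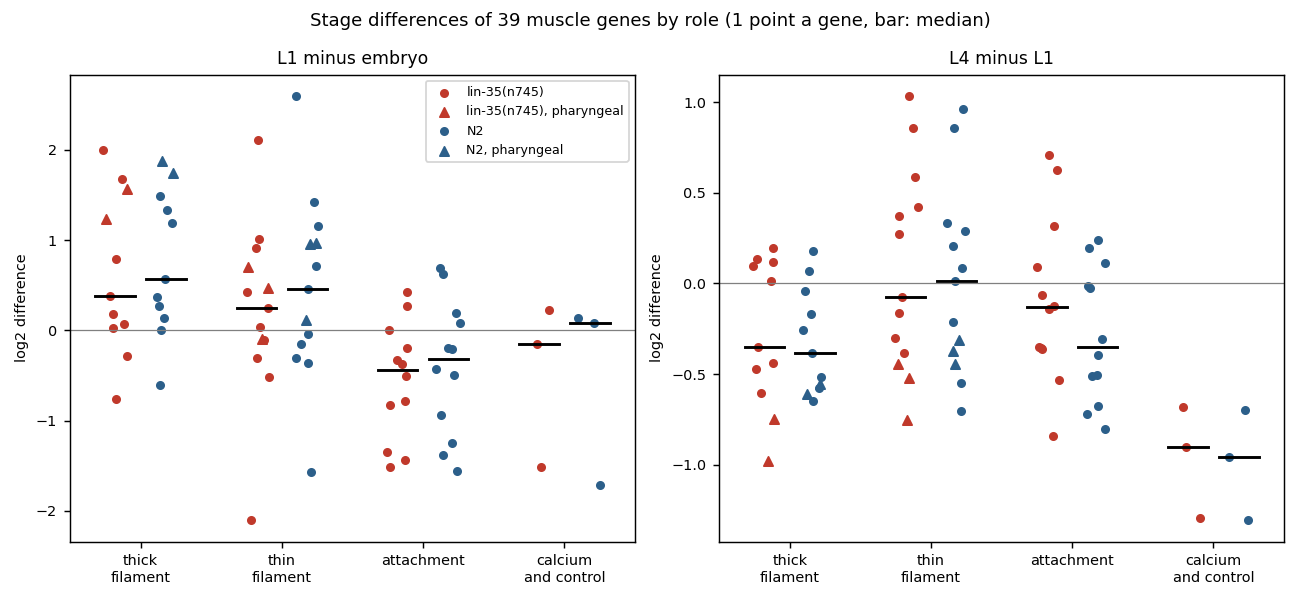
Difference between stages (vertical axis, log2) of the 39 genes by role, for L1 minus embryo and L4 minus L1, with lin-35(n745) in red to the left of N2 in blue; each point is a gene, triangles are pharyngeal genes and bars are medians. Thick and thin filament medians lie above 0 and attachment medians below 0 at the first step, and all pharyngeal genes lie below 0 at the second.

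Probe sets of the same gene did not always give the same answer. The 39 genes have 76 probe sets that name them alone, and 17 genes have only 1. No gene had probe sets called in opposite directions in a strain comparison or an interaction. Beyond those of unc-22, unc-52, unc-87 and myo-1 given above, probe sets other than the representative were called for mlc-3 in embryos (0.34 ± 0.10, adjusted p = 0.0444), for lev-11 in embryos (0.43 ± 0.10, adjusted p = 0.00625) and, from another probe set, at L1 (-0.52 ± 0.14, adjusted p = 0.0137). The lev-11 probe set called in embryos also had interactions of -0.63 ± 0.14 at L1 (adjusted p = 0.00601) and -0.69 ± 0.14 at L4 (adjusted p = 0.00273), and the second myo-1 probe set of -0.71 (adjusted p = 0.0378) and -0.75 (adjusted p = 0.0292). At L1 they were also called for pat-2 (-0.32 ± 0.10, adjusted p = 0.032) and pat-4 (-0.44 ± 0.12, adjusted p = 0.0113). In the stage comparisons, unc-52 was called in opposite directions between N2 L1 and N2 embryos (0.63 and 0.44 against -0.31). The tropomyosin gene lev-11 was so called between L4 and L1 in both strains (0.58 against -0.33 in lin-35(n745), 0.40 against -0.27 in N2), and unc-15 in lin-35(n745) (0.29 against -0.28). lev-11 and unc-52 make many transcript forms, and which form each probe set reads was not tested.

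**Figure D4:**
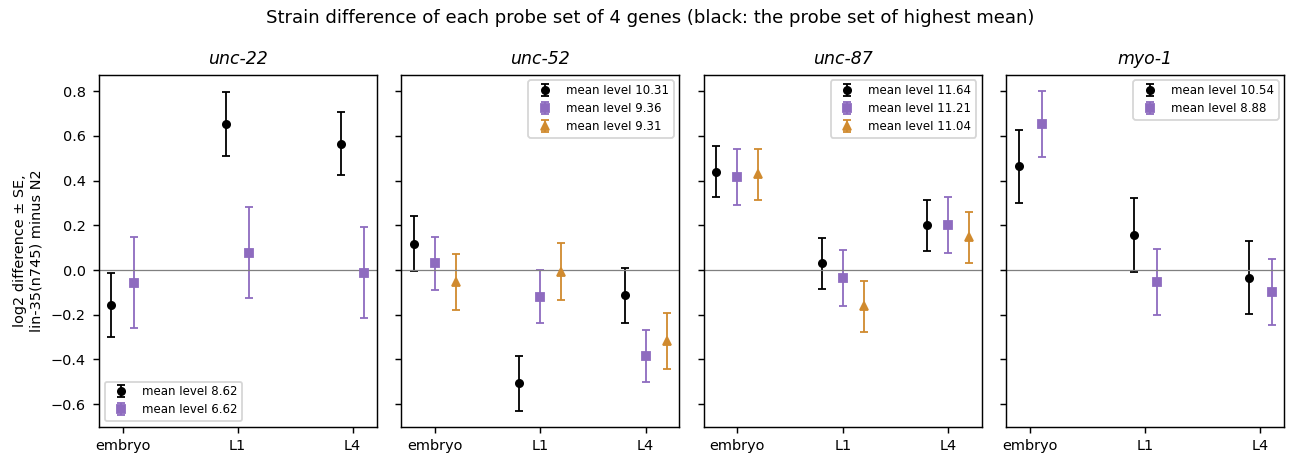
Strain difference ± SE (vertical axis, log2) of each probe set of unc-22, unc-52, unc-87 and myo-1 by stage, with the representative probe set in black and the others in colour. The probe sets of unc-87 lie together, whereas the larval rise of unc-22 and the L1 fall of unc-52 appear in the representative probe set and not in the others.

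Other muscle genes, a list of 50 of which 46 were measured, showed a similar small number of calls in embryos and more at L1. The list also holds genes that attach muscle from the tissue around it, such as mup-4, so its counts are not of muscle cells alone. In embryos 2 of 46 were higher and 0 lower, against 9.70% of all probe sets called. They were the actin-capping gene cap-2 (0.47 ± 0.11) and the potassium channel gene slo-1 (0.38 ± 0.10). At L1 1 of 46 was higher and 12 lower, against 15.2% of all probe sets called, with a median of -0.14 over the list. The higher one was the thin filament protein gene ketn-1 (0.38 ± 0.12), and the lowest were the small heat shock gene hsp-12.1 (-1.18 ± 0.22) and the type IV collagen gene let-2 (-0.84 ± 0.15), a basement membrane component like perlecan. The other 10 lower genes had differences from -0.83 to -0.42. This L1 count of 13 was 6 without lin-35(n745) L1 replicate 3, 6 without N2 L1 replicate 3, 8 without N2 L1 replicate 1 and 2 in a fit of the L1 arrays alone. At L4 3 of 46 were higher and 1 lower, against 15.2% of all probe sets called. The talin gene tln-1 (0.75 ± 0.19), the LIM domain gene lim-9 (0.41 ± 0.13) and ketn-1 (0.37 ± 0.12, named here after its value was seen) were the higher ones, and the dense-body gene alp-1 (-0.46 ± 0.11) was the lower one. The L4 count was 1 to 3 when single L4 arrays were left out.

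Markers of other tissues were also called between the strains. Beside the counts of each list below, 9.70% of all probe sets were called in embryos, 15.2% at L1 and 15.2% at L4. Of 12 germline genes, 3 were higher in lin-35(n745) embryos, 7 were higher and 1 lower at L1, and 5 were higher at L4. Their summed linear level was 11540 to 12330 in lin-35(n745) embryos and 8648 to 9379 in N2 embryos, 8619 to 9907 in lin-35(n745) L1 and 1526 to 2049 in N2 L1, and 14440 to 15230 in lin-35(n745) L4 and 8967 to 9356 in N2 L4. Of 12 neuron genes, 2 were higher and 1 lower in embryos, 0 were called at L1 and 1 was higher at L4. Their sums were 7450 to 7684 in lin-35(n745) embryos and 6601 to 6840 in N2 embryos, 12980 to 16410 in lin-35(n745) L1 and 12460 to 12500 in N2 L1, and 6374 to 6602 in lin-35(n745) L4 and 5488 to 6023 in N2 L4.

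Of 12 intestine genes, 0 were called in embryos, 2 were higher and 3 lower at L1, and 3 were higher at L4. Their sums were 13820 to 14870 in lin-35(n745) embryos and 14030 to 15160 in N2 embryos, 34230 to 37670 in lin-35(n745) L1 and 33460 to 35670 in N2 L1, and 41890 to 42820 in lin-35(n745) L4 and 37270 to 38620 in N2 L4. Of 9 hypodermis genes, 0 were called in embryos and at L1, and 2 were higher and 1 lower at L4. Their sums were 11370 to 12610 in lin-35(n745) embryos and 12880 to 13290 in N2 embryos, 18000 to 18680 in lin-35(n745) L1 and 16910 to 18250 in N2 L1, and 9471 to 9962 in lin-35(n745) L4 and 8786 to 9468 in N2 L4. Of 11 embryo patterning genes, 0 were higher and 2 lower in embryos, 0 were called at L1 and 1 was higher at L4. Their sums were 6902 to 7547 in lin-35(n745) embryos and 7257 to 7647 in N2 embryos, 1040 to 1350 in lin-35(n745) L1 and 943.4 to 1269 in N2 L1, and 1193 to 1434 in lin-35(n745) L4 and 1091 to 1153 in N2 L4. The summed level of the 39 muscle genes was 80430 to 87090 in lin-35(n745) embryos and 78680 to 83710 in N2 embryos, 82370 to 90940 in lin-35(n745) L1 and 90060 to 92490 in N2 L1, and 90150 to 95090 in lin-35(n745) L4 and 88640 to 92720 in N2 L4. These muscle sums overlapped between the strains at every stage. A sum weights the genes of highest value most, here mlc-2 (mean of 13.73 over the 18 arrays) and pat-10 (13.41). The overlap therefore does not speak for each of the 39 genes. The part of other tissues and of staging in the differences above was not tested.

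By position, 11 of the 39 genes (28.2%) lie on the X chromosome, which holds 13.8% of the 17118 genes, and 3 (7.69%) lie on chromosome II, which holds 17.7%, according to the RefSeq gene table. The others lie on chromosomes I (8 genes), III (5), IV (5) and V (7). The 7 genes called between the strains are on X (myo-2 and tnt-3), II (tnc-2 and unc-52), I (unc-87), IV (unc-22) and V (tnt-4).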

How the data were processed

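RNA of whole worms from 6 groups of 3 arrays was measured on Affymetrix C. elegans arrays. The authors deposited 1 value per probe set and array, made with RMA per the submitters' processing notes, whose version is not given in the sources used here. Deposited values were read as log2, since they ran from 2.55 to 15.02; the base of the log is not stated, and no detection calls were used. Leaving out 77 control probe sets left 22548, of which 20766 name 1 gene in the platform annotation, 887 several and 895 none; all 39 members are in the RefSeq gene table. No 2 arrays held identical values, and replicates correlated at 0.986 to 0.997.

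limma 3.58.1 in R 4.3.3 fitted 6 group means to all 18 arrays (12 residual and 7.66 prior degrees of freedom). The test was two-sided, with Benjamini-Hochberg adjustment over 22548 probe sets and a threshold of 0.05. The procedure was tested on simulated data. The 10 contrasts are the strain difference at each stage, its 3 changes between stages, and 2 stage steps per strain. A summed level is the sum of 2 to the power of the values, so probe sets of high value weigh most in it. Precision is limited by 3 arrays a group.

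Genes given by array are unc-54, myo-3, myo-2, unc-15 and hlh-1, every member that passed a strain contrast or interaction, and the 2 highest and 2 lowest members of each strain and N2 stage contrast; other muscle genes are named by the 2 highest and 2 lowest called. The members, roles and lists (pharyngeal, other muscle, germline, neuron, intestine, hypodermis, embryo patterning) were chosen with earlier results of these data known. Of the 50 other muscle genes, act-1, act-2, dys-1 and tmd-1 were not analysed here. Arrays were not treated as pairs by replicate number, and deviations of same-numbered arrays correlated at -0.05 to 0.27. In embryos replicate 1 of both strains shared a low BioDn control, and whether same-numbered arrays were processed together was not tested. The alternatives were quantile normalization, median centring, a filter on dim probe sets, fits of fewer arrays, embryo replicate 1 left out or as a term, a trended prior, a replicate block, no shrinkage, averaged probe sets, and each array left out. Leaving out an array of a stage outside a contrast changes the SE and adjusted p of that contrast but not its difference. The same holds for the replicate block in every contrast. It also holds for the embryo replicate 1 term in strain differences and interactions.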

Additional observations from a re-analysis of the deposited data

Results flagged for a closer look

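The strain difference of 6 muscle genes changed between stages by a test of that change itself (limma, adjusted over all probe sets). The embryo, L1 and L4 differences of each gene are given with its arrays in the report. For the twitchin gene unc-22 the difference was higher than in embryos by 0.8093 at L1 (kept under 27 of 28 alternatives) and by 0.7212 at L4 (kept under 19), and its second probe set did not show it. For the troponin C gene tnc-2 the change relative to embryos was -0.4956 at L1 (kept under 25 of 28) and -0.6271 at L4 (kept under all 28). For the troponin T gene tnt-3 it was -0.5396 at L1 (kept under 19 of 28), and for the perlecan gene unc-52 -0.6253 at L1 (kept under 18 of 28), where the other unc-52 probe sets were not called. At L4 the change relative to embryos was -0.8798 for the pharyngeal myosin gene myo-2 (kept under 23 of 28) and -0.5728 for the pharyngeal troponin T gene tnt-4 (kept under 22 of 28). Without replicate 1 of both strains in embryos, unc-22 at L1 and tnc-2 at L4 passed and the other 6 tests did not. With that replicate as a batch term all 8 passed, but the term is balanced between the strains and cannot change these differences.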

How the results depend on the processing

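The 3 genes called in embryos became 1 without replicate 1 of both strains (tnc-2). At L1 the 3 became 7 with median centring and 6 without dim probe sets, and at L4 the 2 became 1 with probe sets averaged per gene. The 4 L1 against embryo interactions became 1 with only the arrays of those stages and 1 without embryo replicate 1, and the 4 L4 against embryo interactions became 1 without embryo replicate 1 and 2 without shrinkage. The 0 interactions between L4 and L1 became 1 (atn-1) with quantile normalization, without dim probe sets, with a trended prior and with averaged probe sets. Leaving out single arrays gave 1 to 5 calls in embryos, 3 to 8 at L1, 1 to 2 at L4, 2 to 6, 0 to 2 and 1 to 4 for the interactions (L1 against embryos, L4 against L1, L4 against embryos), 24 to 29 and 21 to 28 for the lin-35(n745) stage steps, and 26 to 28 and 20 to 26 for the N2 steps. Signs turned for myo-3 (N2 L1 against embryos, 0.2868) and mlc-2 (-0.2961 in lin-35(n745), -0.2421 in N2) with quantile normalization, and for unc-68 (N2 L1 against embryos, -0.3621) with averaged probe sets. The cause was not tested. With the replicate block the strain counts were 3, 3 and 2, the interactions 4, 0 and 4, and the stage steps 27 and 25 in lin-35(n745) and 28 and 24 in N2. With 3 arrays a group and whole worms, small or opposed changes in single muscles were not detectable.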
